A study of Mus musculus with 7 samples.

Results

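Oxidative phosphorylation is carried out by 5 complexes of the inner mitochondrial membrane, and the transcripts of their nuclear-encoded genes were followed here in mouse kidney. The genes were chosen by type and symbol alone: protein-coding genes whose symbol starts with Nduf (complex I), Uqcr (complex III), Cox4 to Cox8 followed by a subunit letter (complex IV) or Atp5 (complex V), and the genes Sdha, Sdhb, Sdhc and Sdhd (complex II). They were 89 of the 17537 genes listed. Complex I had 45 of them, complex II 4, complex III 8, complex IV 15 and complex V 17. Of the complex I genes, 8 encode assembly factors (Ndufaf1 to Ndufaf8), which help to build the complex but are not part of it. In all, 87 passed the low-level filter of 1 CPM (a gene's read count scaled to a common library size) or more in 2 libraries or more, and the other 2, Cox6a2 and Cox8b, lay under it. Cox4i1 and the 13 subunits encoded by mitochondrial DNA are not analysed here.

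Complexes I and II take electrons from NADH and succinate, complex III passes them to cytochrome c, and complex IV passes them to oxygen. Complexes I, III and IV pump protons as they do so, and complex V, the ATP synthase, uses the proton gradient to make ATP. The proximal tubule and the thick ascending limb of the kidney are rich in mitochondria, because the reabsorption of salt and solutes runs on ATP.

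Kidney RNA was sequenced in 7 C57BL/6 mice that gave 1 library each, labelled as males of 8 to 10 weeks, although the study's methods speak of both sexes. By those methods streptozotocin was given at 8 weeks of age and tissue was taken after 22 weeks of hyperglycemia. The labelled age is therefore not the age at which the kidneys were taken. The nondiabetic controls (C, replicates 2, 8 and 9) were compared with mice made diabetic by streptozotocin, a toxin of the insulin-producing beta cells, at 60 mg/kg on 5 days (DM-22, replicates 1 and 2). A further 2 diabetic mice (DM+SGLT2i, replicates 1 and 2) also drank water with dapagliflozin (25 mg/kg), an inhibitor of the renal glucose transporter SGLT2. It was given for 6 weeks, from week 16 of hyperglycemia on, and the study ended at 22 weeks of hyperglycemia. Streptozotocin diabetes is a model of insulin deficiency, and the kidney is a mixture of cell types, so that fewer cells of a type and less RNA per cell cannot be told apart. The labels name no batches.

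The promoters of 74 of the 89 genes were found among the RefSeq windows on GRCm38.p6, which run from 250 bases before to 50 bases after the start of transcription. CGCATGCG, the core of the motif of nuclear respiratory factor 1 (NRF1, an activator of genes of the respiratory chain), was found on either strand in 10 of the 74 (13.5%). It was in 1.91% of all 27025 windows and in 3.69% of the 10579 windows of protein-coding genes tested. CCGGAAG, a core motif of ETS factors such as GABP (nuclear respiratory factor 2), was in 17 of the 74 (23.0%), against 9.12% of all windows and 17.1% of those of protein-coding genes tested. Neither motif contains the other, and 4 genes held both (Atp5k, Atp5l, Cox6a1 and Uqcr11). The stretches that follow show where the letters lie in the genes whose NRF1-like match lies wholly before the RefSeq start, with the motif in capitals and the strand of the gene from 5′ to 3′. In the GENCODE annotation some genes shown here and below begin farther upstream, such as Atp5g2 at chr15:102672352. Their match then lies inside the gene.
Ndufa11, complex I, NRF1-like, chr17:56717673-56717722, plus strand: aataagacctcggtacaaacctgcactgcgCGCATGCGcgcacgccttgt
Ndufa8, complex I, NRF1-like, chr2:36049339-36049377, minus strand: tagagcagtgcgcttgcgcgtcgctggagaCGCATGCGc
Ndufaf4, complex I assembly, NRF1-like, chr4:24897941-24897990, plus strand: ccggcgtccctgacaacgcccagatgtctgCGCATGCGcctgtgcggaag
Cox6a1, complex IV, NRF1-like, chr5:115349100-115349149, minus strand: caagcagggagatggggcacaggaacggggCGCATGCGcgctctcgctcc
Atp5g2, complex V, NRF1-like, chr15:102671069-102671118, minus strand: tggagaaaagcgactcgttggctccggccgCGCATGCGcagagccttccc
Atp5k, complex V, NRF1-like, chr5:108434429-108434478, minus strand: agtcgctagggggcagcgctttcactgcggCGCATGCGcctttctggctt
Atp5l, complex V, NRF1-like, chr9:44920964-44920992, minus strand: aaccaataaCGCATGCGcatttcccccac

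For the ETS-like motif, whose reverse complement is CTTCCGG, the subunit whose match lies wholly before the RefSeq start and nearest to it is shown for each complex.
Ndufb7, complex I, ETS-like, chr8:83566708-83566756, plus strand: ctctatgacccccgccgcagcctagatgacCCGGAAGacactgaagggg
Sdhd, complex II, ETS-like, chr9:50603877-50603925, minus strand: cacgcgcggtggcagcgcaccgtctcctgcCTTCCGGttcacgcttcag
Uqcrh, complex III, ETS-like, chr4:116075071-116075110, minus strand: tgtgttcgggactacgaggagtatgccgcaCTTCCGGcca
Cox6a1, complex IV, ETS-like, chr5:115348959-115349004, minus strand: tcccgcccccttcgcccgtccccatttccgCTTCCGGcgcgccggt
Atp5h, complex V, ETS-like, chr11:115419939-115419987, minus strand: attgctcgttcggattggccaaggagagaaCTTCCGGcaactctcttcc

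The libraries held between 46456125 and 56541594 reads on listed genes, so that 1 read was worth between 0.0180 and 0.0231 CPM. All 15 proximal tubule markers were detected, and their summed level was 13709 CPM in C replicate 2 and between 24865 and 46790.0 CPM in the other 6 libraries. Kap alone was at 2090 CPM in C replicate 2 and 12472 CPM in DM-22 replicate 1. The median marker, relative to its own mean over the libraries, was at 0.52 in C replicate 2 and 0.58 in DM-22 replicate 1, against 1.01 to 1.58 elsewhere. Thick ascending limb markers summed to 15361.5 CPM in DM-22 replicate 1 and to between 4974 and 8958 CPM elsewhere. DM+SGLT2i replicate 1 stood apart as well: adipose tissue markers summed to 1005 CPM in DM+SGLT2i replicate 1 and to between 34.2 and 79.4 CPM elsewhere. Urothelium markers summed to 97.4 CPM in C replicate 2 and 163 CPM in DM+SGLT2i replicate 1, against 2.54 to 26.4 CPM elsewhere, and macrophage markers were highest in C replicate 2 (413 CPM, others 134 to 239). Comparisons with controls are therefore given with all 3 controls and without C replicate 2. DM-22 replicate 1 and DM+SGLT2i replicate 1, which also stood apart in some markers, were kept in both. Leaving out any 1 library in turn gave a median log2 fold change of the genes in DM-22 against C mice of 0.28 to 0.53.

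The oxidative phosphorylation genes moved together from library to library, and they did so in an order that cut across the 3 groups. Summed over the 89 genes, the level was 30024, 21882 and 21854 CPM in C replicates 2, 8 and 9. It was 31475 and 30942 CPM in DM-22 replicates 1 and 2, and 21312 and 28648 CPM in DM+SGLT2i replicates 1 and 2. Both diabetic libraries without the inhibitor were high, 2 controls and 1 treated library were low, and C replicate 2 and DM+SGLT2i replicate 2 lay with or near the diabetic libraries. Relative to its own mean over the 7 libraries, on the log2(CPM + 0.5) scale, the median gene lay 0.30 higher in C replicate 2 and 0.28 and 0.25 higher in DM-22 replicates 1 and 2. The median gene lay 0.30 lower in C replicate 8, 0.27 lower in C replicate 9 and 0.36 lower in DM+SGLT2i replicate 1, whereas the median deviation was 0.14 in DM+SGLT2i replicate 2. Of the 87 genes, 86 were above their own mean in DM+SGLT2i replicate 2, and 3 were in DM+SGLT2i replicate 1.

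**Figure D1:**
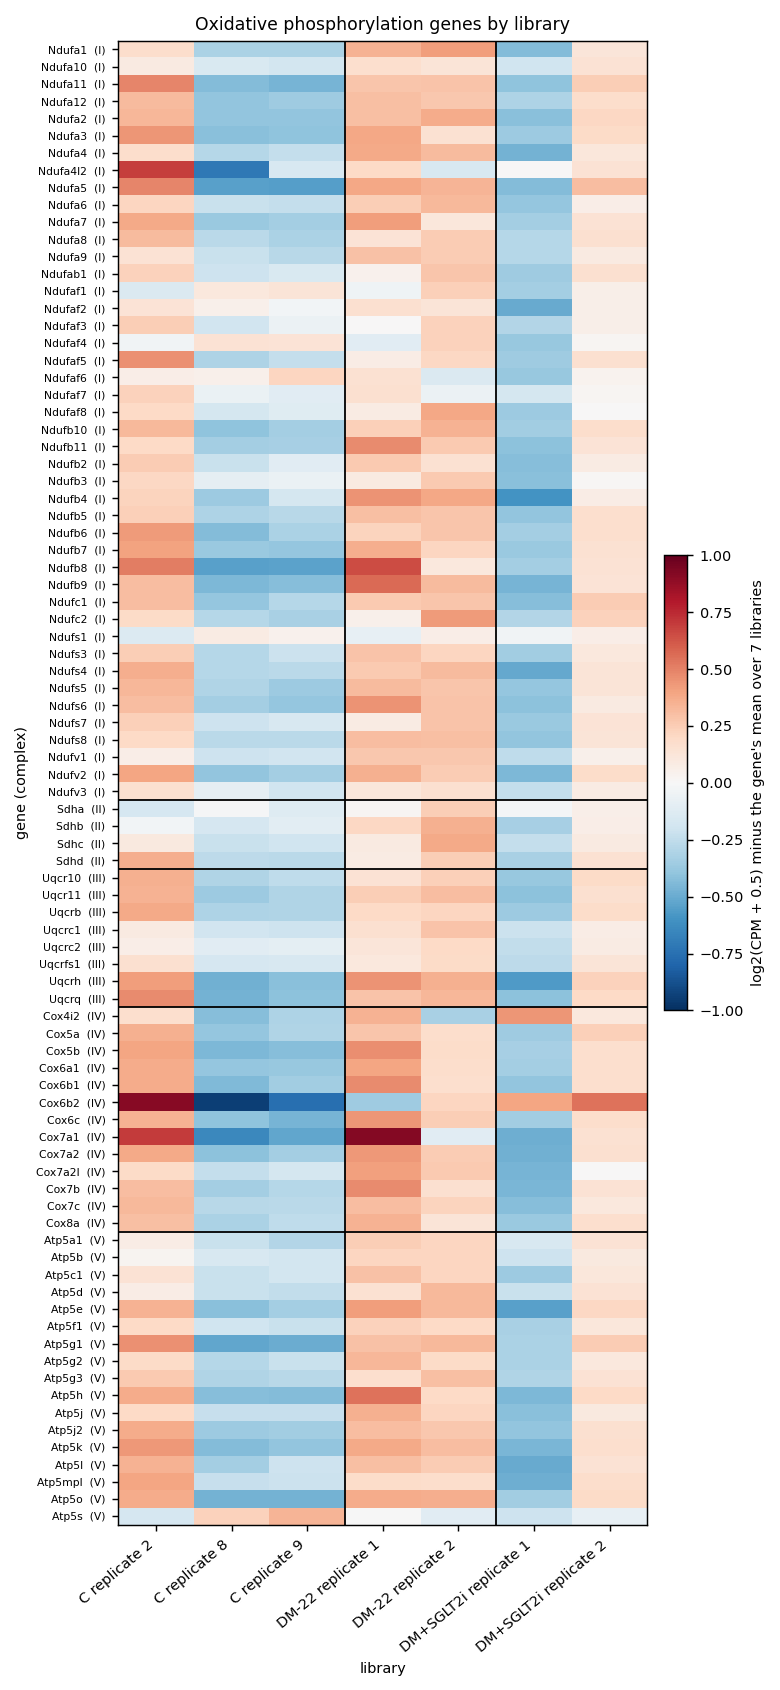
Heat map of 86 of the 87 genes tested (rows, by complex) in the 7 libraries (columns, by group), with the colour giving log2(CPM + 0.5) minus the gene's mean over the libraries. Most rows are blue in C replicates 8 and 9 and DM+SGLT2i replicate 1 and red in the other 4 libraries, and the rows of Ndufs1, Atp5s and some assembly factors differ.

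This order, described after the values had been seen, held gene by gene. C replicates 8 and 9 and DM+SGLT2i replicate 1 were the 3 lowest libraries for 78 of the 87 genes (89.7%), against 14.9% of all 13976 genes tested. The lowest library was DM+SGLT2i replicate 1 for 59 genes, C replicate 8 for 18 and C replicate 9 for 8. The highest was DM-22 replicate 1 for 32 genes, C replicate 2 for 30 and DM-22 replicate 2 for 21. The 9 genes outside the pattern were Sdha, Ndufs1, Ndufaf1, Ndufaf4, Ndufaf6, Ndufa4l2, Cox4i2, Cox6b2 and Atp5s. DM+SGLT2i replicates 1 and 2 thus lay on opposite sides of the mean for most of these genes, and each mean of that group averages over this gap.

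The pattern was shared by all 5 complexes. Complex I summed to 8009, 5637 and 5678 CPM in C replicates 2, 8 and 9, to 8314 and 8109 CPM in DM-22 replicates 1 and 2, and to 5355 and 7417 CPM in DM+SGLT2i replicates 1 and 2. In the same order complex III gave 3094, 2198, 2231, 3013, 3146, 2106 and 2886 CPM. Complex V, which had the highest sum, gave 12230.2, 9328, 9212, 13162, 13005, 9202 and 12088 CPM. The sums of these 3 complexes were thus lowest in the same 3 libraries. Complex IV differed between the DM-22 libraries, with 4556, 2757, 2832, 4743, 4079, 2744 and 4005 CPM, the median gene lying 0.41 above its mean in DM-22 replicate 1 and 0.18 in DM-22 replicate 2. Complex II varied least, with 2136, 1962, 1902, 2243, 2604, 1906 and 2252 CPM, and was highest in DM-22 replicate 2.

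**Figure D2:**
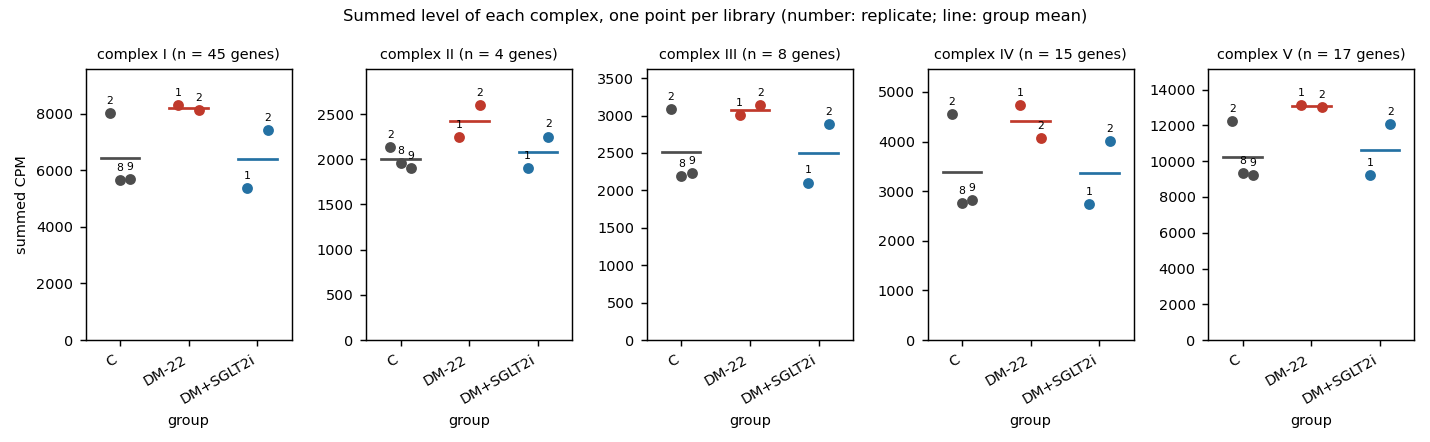
Summed CPM of the genes of complexes I to V (1 panel each, axis from 0), with 1 point per library, its replicate number beside it and a line at the group mean. In every panel both DM-22 points lie above C replicates 8 and 9 and DM+SGLT2i replicate 1, and C replicate 2 lies above the other controls, by the smallest share in complex II.

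Against all 3 controls, the oxidative phosphorylation genes were higher on average in DM-22 mice, but no gene passed the test against the spread between libraries. The median log2 fold change was 0.37, with 83 of 87 values positive, and the median over all genes tested was 0.00. By complex the median was 0.37 for complex I, 0.29 for II, 0.31 for III, 0.42 for IV and 0.37 for V. With limma, 0 of the 87 genes passed an adjusted p of 0.05, as did 0% of all genes tested. At an unadjusted p under 0.05, 0 of the 87 were higher, against 1.19% of all genes. Limma with voom weights on the recovered reads likewise gave 0 of the 87 at either threshold. At the unadjusted one it gave 167 higher and 350 lower of all 13976 genes. Both DM-22 libraries lay above all 3 controls for 23 genes (26.4%), against 10.8% of all genes.

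C replicate 2 set the size of this difference. Without it the median log2 fold change was 0.53, and by complex 0.54 for I, 0.42 for II, 0.49 for III, 0.67 for IV and 0.52 for V. Still, 0 of the 87 genes passed the adjusted threshold with limma or with voom, at which limma called 2 genes of all tested (0.0143%), and the smallest adjusted p among the 87 was 0.103, for Atp5o. At an unadjusted p under 0.05, 52 of the 87 genes were higher with limma, against 10.4% of all genes tested. With voom 53 were higher, against 1413 of all 13976 genes. By complex, limma gave 28 of 45 in complex I, 0 of 4 in II, 4 of 8 in III, 11 of 13 in IV and 9 of 17 in V. Both DM-22 libraries lay above C replicates 8 and 9 for 81 genes (93.1%), against 29.9% of all genes. The exceptions were Cox4i2, Ndufs1, Ndufaf1, Ndufaf4, Ndufaf6 and Atp5s. Atp5s was the only gene of the 87 with both DM-22 libraries below C replicates 8 and 9, against 29.5% of all genes.

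In DM+SGLT2i mice the genes were on average at the level of all 3 controls and below that of DM-22 mice. Against all 3 controls the median log2 fold change was -0.01, with 38 values positive and 49 negative, and 0 of the 87 genes passed the adjusted threshold (0% of all genes). None of the 87 reached an unadjusted p under 0.05 with limma or with voom, and few genes did at all. Of all 13976 genes, limma gave 93 higher and 58 lower, and voom 97 higher and 51 lower. The direction rested on the treated libraries kept: the median was 0.25 without DM+SGLT2i replicate 1 and -0.27 without DM+SGLT2i replicate 2. Without C replicate 2 the median was 0.18, and 77 of 87 values were positive. In that comparison limma called 17 genes of all tested (0.122%) and none of the 87, while at an unadjusted p under 0.05 there was 1 gene higher, Cox6b2, and 1 lower, Atp5s, against 8.73% and 9.14% of all genes.

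Against DM-22 mice the median log2 fold change was -0.37, with 83 of 87 values negative, and the median over all genes was 0.00. By complex it was -0.37 for I, -0.28 for II, -0.30 for III, -0.42 for IV and -0.37 for V. No gene passed the adjusted threshold with limma or with voom (0% of all genes, with the spread estimated with or without C replicate 2). At an unadjusted p under 0.05, limma gave 2 genes lower, Ndufb4 and Cox7a2l, against 1.66% of all genes. Voom gave 1, against 239 of all 13976 genes. With the spread estimated without C replicate 2, limma gave 6 genes lower, against 3.89%, and voom 5, against 517 of all 13976 genes. Without DM+SGLT2i replicate 2 there were 11 genes lower, against 2.84%, in a fit that assumes the lone treated library to vary like the other groups. Both DM+SGLT2i libraries lay below both DM-22 libraries for 59 genes (67.8%), against 20% of all genes. DM+SGLT2i replicate 1 carried most of the difference: without it the median was -0.12, and without DM+SGLT2i replicate 2 it was -0.61. The comparisons with C and with DM-22 share libraries and are not independent of each other.

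**Figure D3:**
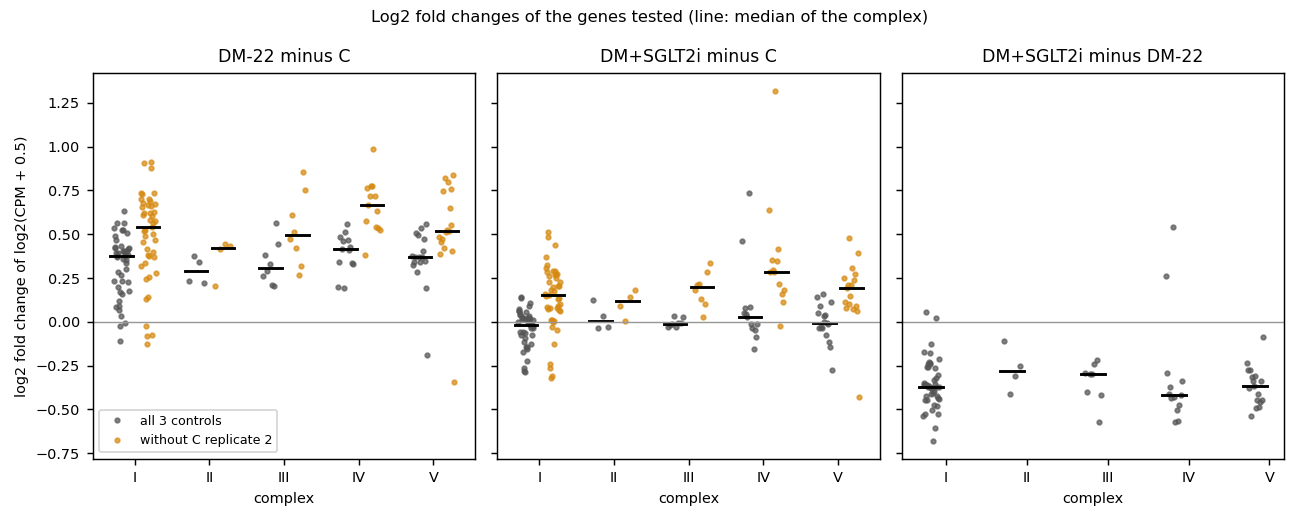
Log2 fold changes of the 87 genes (points) by complex in the 3 comparisons (grey), also without C replicate 2 (orange) in both comparisons with C, and the median of each complex as a line. The medians against DM-22 lie between -0.28 and -0.42, and those of DM-22 against C between 0.29 and 0.42 with all 3 controls.

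In complex I, the genes of the core subunits, which carry the flavin and the iron-sulfur clusters along which electrons pass, were set beside those of the accessory subunits around them, with no test of the difference between the classes. The median log2 fold change of DM-22 mice was 0.34 for the 7 core genes and 0.40 for the 30 accessory genes, and 0.47 and 0.62 without C replicate 2, and the classes overlapped. Ndufv1, the NADH-binding subunit, was at 414, 343 and 346 CPM in C replicates 2, 8 and 9, at 477 and 479 CPM in DM-22 replicates 1 and 2, and at 333 and 410.1 CPM in DM+SGLT2i replicates 1 and 2. Both DM-22 libraries were above the other 5, with a log2 fold change against C of 0.38 ± 0.18 (SE, limma adjusted p = 0.804). Ndufv2 was at 332, 192 and 199 CPM in C, 324 and 301 CPM in DM-22 and 184 and 286 CPM in DM+SGLT2i, so that C replicate 2 was its highest library. The log2 fold change against all 3 controls was 0.34 for Ndufs3, 0.23 for Ndufs7 and 0.42 for Ndufs8. Ndufs1, the largest subunit and the carrier of iron-sulfur clusters near the NADH site, stood apart from the other core genes. It was at 281, 328 and 318 CPM in C, 291 and 323 CPM in DM-22 and 301 and 323 CPM in DM+SGLT2i, and DM-22 mice differed from C by -0.01 ± 0.15 (log2), with overlapping groups.

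The accessory subunits included the largest differences of complex I. Ndufb9, of the membrane arm, was at 464, 274 and 279 CPM in C, 556 and 468 CPM in DM-22 and 272 and 411 CPM in DM+SGLT2i. Both DM-22 libraries were above all others, and its log2 fold change against C, 0.63 ± 0.30, was the largest of the 87 genes (limma adjusted p = 0.804). Without C replicate 2, the largest in the complex were those of Ndufb8 and Ndufa5, both at 0.91 ± 0.24 (limma adjusted p = 0.107 and 0.108). Ndufa5 was at 136, 66.6 and 66.2 CPM in C, 127 and 123 CPM in DM-22 and 71.9 and 121 CPM in DM+SGLT2i, and Ndufb8 at 246, 118 and 119 CPM in C, 271 and 185 CPM in DM-22 and 136 and 189.9 CPM in DM+SGLT2i. The DM-22 libraries of Ndufb8 differed from each other by more than those of most genes, and DM-22 replicate 2 lay below DM+SGLT2i replicate 2. Ndufb4 had the most negative difference between DM+SGLT2i and DM-22 mice, at -0.68 ± 0.28 (limma adjusted p = 0.881). It was at 227, 151 and 172 CPM in C, 265 and 255 CPM in DM-22 and 128 and 205 CPM in DM+SGLT2i, and the diabetic groups did not overlap. Ndufa4, named for complex I but now placed in complex IV, had the highest level per length in the Nduf family, at 636 CPM per kilobase of transcript on average. Counting it with complex IV left the median log2 fold changes of complexes I and IV in DM-22 mice at 0.37 and 0.42.

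The 8 assembly factors of complex I did not follow the subunits closely. Their median log2 fold change in DM-22 mice was 0.08, against 0.39 for the 37 subunits, and 0.14 against 0.61 without C replicate 2. Their summed level was 219, 198 and 203 CPM in C, 207 and 223 CPM in DM-22 and 159 and 207 CPM in DM+SGLT2i, so that the low library was DM+SGLT2i replicate 1 alone. Ndufaf4 was at 42.0, 47.5 and 47.3 CPM in C, 39.6 and 50.4 CPM in DM-22 and 32.9 and 43.4 CPM in DM+SGLT2i. Ndufaf1 was at 23.8, 28.5 and 29.1 CPM in C, 25.6 and 31.3 CPM in DM-22 and 20.8 and 27.5 CPM in DM+SGLT2i. For both, the 2 DM-22 libraries lay on opposite sides of C replicates 8 and 9. Levels were low throughout the family, with means between 11.9 and 23.8 CPM per kilobase, whereas Ndufv1 was at 241 on the same scale.

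Complex II, the only complex encoded wholly by nuclear genes and also an enzyme of the tricarboxylic acid cycle, had the smallest shift. Sdha, the flavoprotein that oxidizes succinate, was at 892, 992 and 913 CPM in C, 1013 and 1184 CPM in DM-22 and 987 and 1043 CPM in DM+SGLT2i. C replicate 2 was its lowest library, unlike in most genes, and its log2 fold change against C was 0.23 ± 0.20 in DM-22 mice. Sdhb, the iron-sulfur subunit, was at 370.3, 335 and 350.2 CPM in C, 434 and 481 CPM in DM-22 and 299 and 395 CPM in DM+SGLT2i. Both DM-22 libraries were above the other 5, and the log2 fold change was 0.38 ± 0.18 (limma adjusted p = 0.804). The membrane anchors Sdhc and Sdhd had log2 fold changes of 0.34 ± 0.20 and 0.22 ± 0.26. Sdhd was highest in C replicate 2, at 417 CPM, against 271 and 269.6 CPM in C replicates 8 and 9, 345 and 386 CPM in DM-22 and 259.8 and 361 CPM in DM+SGLT2i.

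In complex III, the Rieske protein and the core proteins had smaller differences than the hinge protein. Uqcrfs1, the Rieske iron-sulfur protein, was at 439, 348 and 350.3 CPM in C, 423 and 447 CPM in DM-22 and 327 and 429 CPM in DM+SGLT2i, and DM-22 mice differed from C by 0.21 ± 0.20 (log2). The core proteins Uqcrc1 and Uqcrc2 gave 0.33 ± 0.19 and 0.21 ± 0.18. Uqcrh, the hinge protein, was at 374, 199.8 and 208 CPM in C, 382 and 357 CPM in DM-22 and 188 and 328 CPM in DM+SGLT2i. Its values fell into 3 low and 4 high libraries, and the log2 fold change was 0.56 ± 0.35 with all 3 controls and 0.85 ± 0.26 without C replicate 2 (limma adjusted p = 0.134). Uqcrq, a small subunit that binds near cytochrome b, was at 339, 176 and 184 CPM in C, 298 and 308 CPM in DM-22 and 183 and 279.5 CPM in DM+SGLT2i, and C replicate 2 was its highest library.

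Complex IV had the highest median fold change in both sets of controls. Cox5a (ENSMUSG00000000088, chr9:57521274-57532426 on the plus strand of mm10), a subunit on the matrix side of the catalytic core, was at 409, 245 and 259 CPM in C, 388 and 362 CPM in DM-22 and 249 and 377 CPM in DM+SGLT2i. The values split into 3 low and 4 high libraries, with C replicate 2 the highest, and the log2 fold change of DM-22 mice was 0.34 ± 0.29 with all 3 controls and 0.57 ± 0.22 without C replicate 2 (limma adjusted p = 0.810 and 0.180). Cox5b, which binds zinc, was at 496, 276 and 282 CPM in C, 523 and 429 CPM in DM-22 and 299.5 and 425 CPM in DM+SGLT2i. Its log2 fold change was 0.49 ± 0.31, and 0.76 ± 0.21 without C replicate 2 (limma adjusted p = 0.118). Cox6a1, which had the highest CPM and the highest level per length of the complex (963 CPM per kilobase), was at 693, 409 and 412 CPM in C, 705 and 606 CPM in DM-22 and 423 and 601 CPM in DM+SGLT2i. Cox7a2l, which takes part in joining complexes III and IV into supercomplexes, was at 167, 124 and 129.6 CPM in C, 195 and 175 CPM in DM-22 and 106 and 146 CPM in DM+SGLT2i. The diabetic groups did not overlap for Cox7a2l, and the difference of DM+SGLT2i from DM-22 mice was -0.57 ± 0.22 (limma adjusted p = 0.881).

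In complex V, the subunits of the catalytic head were the most abundant transcripts of the machinery. Atp5b, the beta subunit that holds the catalytic sites, was at 3557, 3133 and 3073 CPM in C, 4055 and 4063 CPM in DM-22 and 3023 and 3729.7 CPM in DM+SGLT2i, and it averaged 1837 CPM per kilobase, the highest of all 89 genes. Both DM-22 libraries were above all others, with a log2 fold change against C of 0.32 ± 0.32. Atp5a1, the alpha subunit, was at 2851, 2332 and 2216 CPM in C, 3215 and 3149 CPM in DM-22 and 2431 and 2998 CPM in DM+SGLT2i, and its DM-22 libraries were likewise above the other 5. The central stalk genes Atp5c1, Atp5d and Atp5e gave log2 fold changes of 0.34 ± 0.22, 0.37 ± 0.20 and 0.51 ± 0.31. Atp5o, the protein that joins the head to the outer stalk, was at 533, 296 and 297 CPM in C, 532 and 530.4 CPM in DM-22 and 323 and 472 CPM in DM+SGLT2i. C replicate 2 and the DM-22 libraries were nearly equal, and the log2 fold change of DM-22 mice was 0.56 ± 0.31 with all 3 controls and 0.84 ± 0.21 without C replicate 2.

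Atp5s, also known as factor B, went the other way. It was at 10.5, 14.0 and 15.1 CPM in C, 11.9 and 10.9 CPM in DM-22 and 10.2 and 11.2 CPM in DM+SGLT2i, so that C replicates 8 and 9 were its highest libraries. Its log2 fold change was -0.19 ± 0.19 in DM-22 mice with all 3 controls and -0.34 ± 0.14 without C replicate 2, and -0.43 ± 0.14 in DM+SGLT2i mice without C replicate 2 (limma adjusted p = 0.827, 0.198 and 0.205).

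Isoforms known mainly from other tissues were low and did not share one pattern. Cox7a1, the isoform of heart, skeletal muscle and brown fat, was at 24.0, 9.12 and 9.98 CPM in C, 28.0 and 13.4 CPM in DM-22 and 10.2 and 16.2 CPM in DM+SGLT2i. It made up between 6.30% (DM-22 replicate 2) and 11% (DM-22 replicate 1) of Cox7a1 and Cox7a2 together, per length. Markers of skeletal and heart muscle summed to between 0.918 and 1.81 CPM in 6 libraries and to 15.3 CPM in DM+SGLT2i replicate 1, and the adipose markers were high in that library, in which Cox7a1 was not. Cox6b2, the testis isoform, was at 12.2, 3.01 and 3.50 CPM in C, 4.77 and 7.33 CPM in DM-22 and 8.40 and 9.34 CPM in DM+SGLT2i. It was the one gene of the 87 with both DM+SGLT2i libraries above both DM-22 libraries, against 21.4% of all genes tested. The share of Cox6b2 in Cox6b1 and Cox6b2 together ranged from 0.776% in DM-22 replicate 1 to 2.45% in DM+SGLT2i replicate 1. Its log2 fold change in DM+SGLT2i mice was 0.73 ± 0.56 with all 3 controls and 1.32 ± 0.24 without C replicate 2 (limma adjusted p = 0.9997 and 0.101). When only these 4 libraries were fitted, the adjusted p was 0.00959 with limma, the one setting in which any of the 87 genes passed the threshold. Cox6b2 was then the only 1 of the 87 genes called higher, whereas 6.79% of all genes tested were.

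Cox4i2, the isoform of lung and of low oxygen, was near the filter, at 1.12, 0.568 and 0.662 CPM in C, 1.33 and 0.647 CPM in DM-22 and 1.45 and 1.05 CPM in DM+SGLT2i. Ndufa4l2, which is induced by low oxygen, was at 9.03, 3.12 and 4.79 CPM in C, 6.28 and 4.81 CPM in DM-22 and 5.42 and 6.05 CPM in DM+SGLT2i, and the groups overlapped. The muscle isoforms Cox6a2 and Cox8b reached at most 1.13 and 0.484 CPM in any library. Among the 3 genes for the same c subunit of the ATP synthase ring, Atp5g3 gave between 72.3% and 75.4% of the transcripts per length, Atp5g2 between 19.6% and 22.6% and Atp5g1 between 4.14% and 5.55%. This order rests on the annotated main transcript of Atp5g1, of 4715 bases, against 731 for Atp5g2 and 723 for Atp5g3. By mean CPM, which is not per length, Atp5g3 was at 777, Atp5g1 at 336 and Atp5g2 at 219. The share of Atp5g1 was lowest in C replicates 8 and 9 and highest in C replicate 2. Atp5g1 itself was at 444, 226 and 229.6 CPM in C, 398 and 406 CPM in DM-22 and 260.1 and 387 CPM in DM+SGLT2i, with a log2 fold change of 0.50 ± 0.34, and 0.82 ± 0.21 without C replicate 2.

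Other mitochondrial gene lists moved less than the subunits. No gene of these lists passed the adjusted threshold in any of the 3 comparisons, with all 3 controls or without C replicate 2. The median log2 fold change of DM-22 mice with all 3 controls was 0.05 for 37 other assembly factors, 0.15 for 11 genes of electron carriers and ATP exchange, 0.10 for 17 genes of the tricarboxylic acid cycle and 0.07 for 12 genes of the outer membrane and protein import. Without C replicate 2 these medians were 0.10, 0.26, 0.11 and 0.06. For 75 mitochondrial ribosomal proteins the median was 0.16, with 65 values positive, and 0.22 without C replicate 2, with 67 positive. Their median deviation was -0.12 and -0.08 in C replicates 8 and 9 and -0.31 in DM+SGLT2i replicate 1, and positive in the other libraries. The genes of electron carriers and ATP exchange shared this split, with -0.20, -0.11 and -0.19 in those libraries. Cycs, cytochrome c, was at 452, 347 and 371 CPM in C, 343 and 542 CPM in DM-22 and 315 and 482 CPM in DM+SGLT2i, so that its DM-22 libraries were the second lowest and the highest. Citrate synthase (Cs), often taken as a measure of mitochondrial mass, was at 409, 338 and 311 CPM in C, 350.0 and 399 CPM in DM-22 and 405 and 419 CPM in DM+SGLT2i, an order unlike that of the subunits. Ckmt1, the mitochondrial creatine kinase, was at 127, 41.1 and 37.3 CPM in C, 74.4 and 88.9 CPM in DM-22 and 64.9 and 88.7 CPM in DM+SGLT2i, with log2 fold changes of 1.04 ± 0.19 in DM-22 and 0.94 ± 0.19 in DM+SGLT2i mice without C replicate 2 (limma adjusted p = 0.083 and 0.110). With all 3 controls, of which C replicate 2 was its highest library, they were 0.48 ± 0.52 and 0.38 ± 0.52.

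The regulators of mitochondrial biogenesis were mostly lower, by a small amount in the median. Of 20 genes, 14 had negative log2 fold changes in DM-22 mice with all 3 controls and 18 without C replicate 2, with medians of -0.11 and -0.18. The largest change with all 3 controls was upward, that of Esrrb at 0.80 ± 0.63 (limma adjusted p = 0.806). Esrrb was at 64.8, 33.5 and 30.4 CPM in C and at 143 and 34.8 CPM in DM-22 replicates 1 and 2, so that its DM-22 libraries disagreed. Ppargc1a, the coactivator PGC-1alpha, was at 82.3, 86.1 and 79.9 CPM in C, 91.7 and 69.0 CPM in DM-22 and 88.1 and 91.4 CPM in DM+SGLT2i, without separation of the groups. Ppargc1b, the related coactivator PGC-1beta, was at 7.51, 14.2 and 14.4 CPM in C, 6.66 and 8.19 CPM in DM-22 and 11.4 and 8.24 CPM in DM+SGLT2i. It was highest in the same 3 libraries in which most subunits were lowest, and its log2 fold change in DM-22 mice without C replicate 2 was -0.91 ± 0.20 (limma adjusted p = 0.095), against -0.61 ± 0.32 with all 3 controls. Gabpa, a subunit of the ETS factor GABP, was at 36.9, 57.9 and 55.7 CPM in C, 43.8 and 43.5 CPM in DM-22 and 44.3 and 40.5 CPM in DM+SGLT2i. Nrf1 was between 15.5 and 20.3 CPM, and Tfam, which packages mitochondrial DNA and activates its transcription, between 42.8 and 55.7 CPM.

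**Figure D4:**
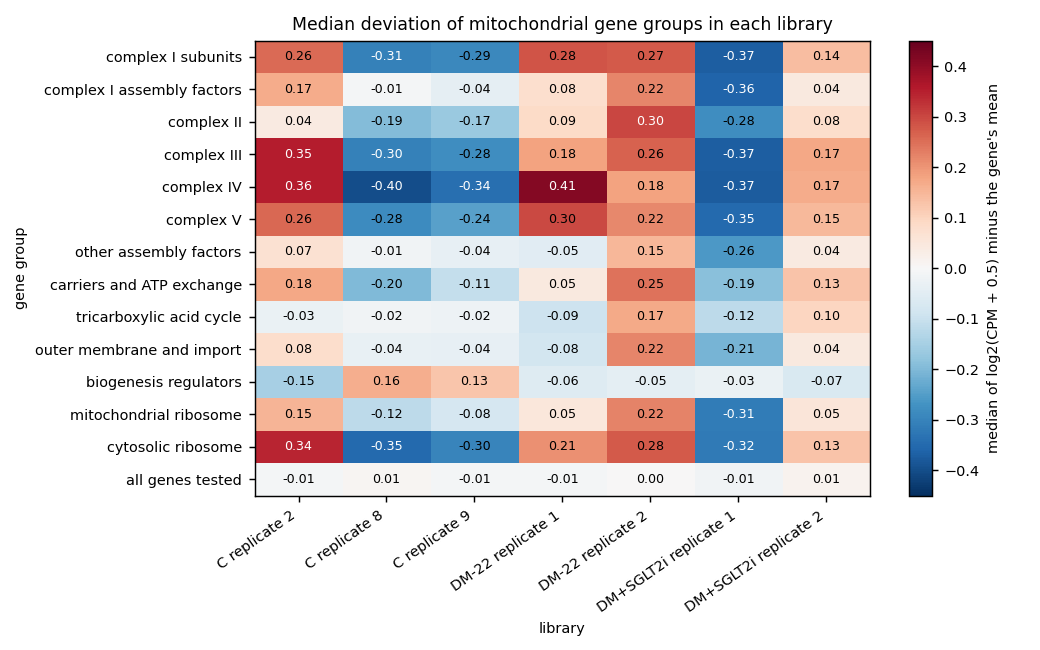
Median over the genes of each group (rows) of log2(CPM + 0.5) minus the gene's mean over 7 libraries, printed in each cell, for the 7 libraries (columns). The subunits of complexes I, III, IV and V and the cytosolic ribosomal proteins have negative medians in C replicates 8 and 9 and DM+SGLT2i replicate 1, and the biogenesis regulators have positive medians in those 2 controls.

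The genes shared a feature that the rule had not used, and it moved with the result. Their transcripts were short, with a median length of 875 bases for the main annotated transcript and 49 of 87 (56.3%) under 1000 bases, against 7.21% of all genes tested. Across the 5 complexes, the 21 genes classed as core in the list used had a median length of 1410 bases, and the 58 classed as accessory 713.5 bases. That list counts Cox5a and Cox5b as core and Atp5g1, Atp5g2 and Atp5g3 as accessory. Short transcripts in general were higher in DM-22 mice, and the median of the oxidative phosphorylation genes was above that of the others in every length class. The classes rest on the annotated main transcript, which places Atp5g1 (4715 bases) and Ndufb2 (4371 bases) in the longest class. With all 3 controls, the median log2 fold change in DM-22 mice under 700 bases was 0.41 for 31 of the genes and 0.09 for 397 others. At 2500 bases and over it was 0.23 for 7 of the genes and -0.05 for 8394 others. In DM+SGLT2i against DM-22 mice the medians were -0.42 and -0.21 under 700 bases and -0.26 and 0.08 at 2500 bases and over. The part of transcript length in the result was not tested further.

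**Figure D5:**
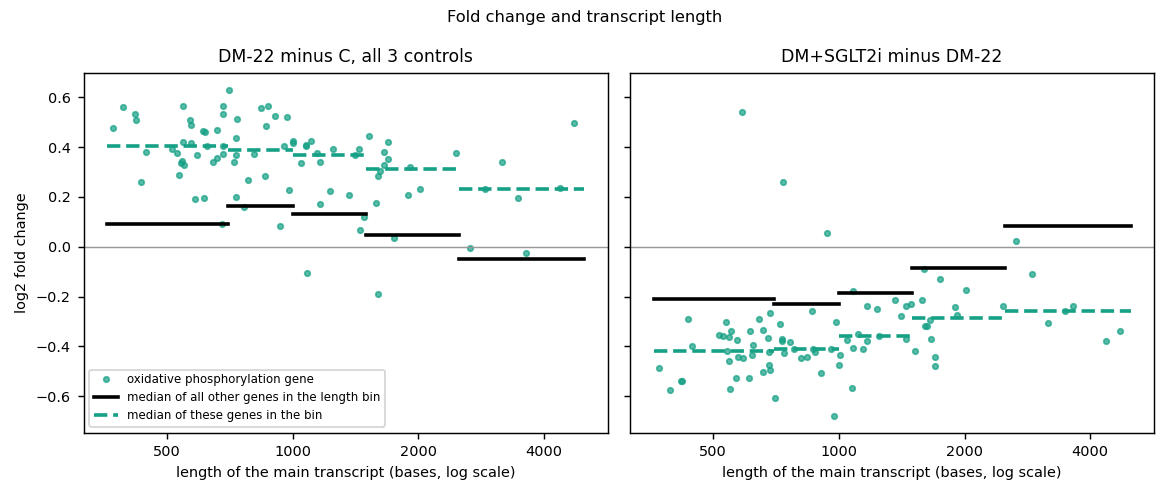
Log2 fold change of each of the 87 genes (points) against the length of its main transcript (log scale), for DM-22 minus C with all 3 controls and for DM+SGLT2i minus DM-22, with the median of these genes (dashed) and of all other genes (solid) in 5 length classes. The outer classes are drawn to the edge of the plotted range, and in each class the dashed line lies farther from 0 than the solid line, or on the other side of it.

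The cytosolic ribosomal proteins, which are also short and abundant but not mitochondrial, showed the same split of 3 low and 4 high libraries. Their summed level was 29425, 18350.4 and 18924 CPM in C, 27059 and 28317 CPM in DM-22 and 18829.8 and 25436 CPM in DM+SGLT2i. Their median log2 fold change in DM-22 mice was 0.35 with all 3 controls and 0.59 without C replicate 2, with all 86 values positive in both, and it was -0.33 in DM+SGLT2i against DM-22 mice. A list of 6 RNAs taken as retained in the nucleus, such as Malat1 and Neat1, ran the other way, except for Gas5. Gas5 was lowest in DM+SGLT2i replicate 1 (24.7 CPM) and highest in DM-22 replicate 2 (37.3 CPM). The summed level of the list was 130.4, 545 and 742 CPM in C, 103 and 98.3 CPM in DM-22 and 253 and 126 CPM in DM+SGLT2i. The 3 libraries with the highest sums were the 3 in which most oxidative phosphorylation genes were lowest. Among the cell type markers, the summed level of those of the collecting duct followed the same split. The sums were 1389.5, 760.4 and 727 CPM in C, 1382 and 1136 CPM in DM-22 and 794 and 1289 CPM in DM+SGLT2i. Hsd11b2 and Slc4a1 followed it singly, but other markers of the list did not. Aqp2 was lowest in DM-22 replicate 2 (167 CPM), Slc26a4 in DM-22 replicate 1 (24.9 CPM) and Aqp3 in C replicate 2 (104 CPM). The proximal tubule markers did not follow the split, since they were low in C replicate 2, in which the subunits were high, and high in DM-22 replicate 2, C replicate 8 and C replicate 9. The markers of the thick ascending limb, the distal convoluted tubule, podocytes and endothelium did not have these 3 libraries lowest either. The part of RNA quality and of cell composition in the result was not tested.

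The promoter letters shown at the start did not separate the genes by response. In DM-22 mice the median log2 fold change with all 3 controls was 0.36 for the 10 genes with the NRF1-like motif and 0.38 for the 63 tested genes with a window but without it. For the ETS-like motif it was 0.38 for 17 genes and 0.37 for 56. Without C replicate 2 the medians were 0.53 and 0.57 for the NRF1-like motif and 0.61 and 0.54 for the ETS-like motif. Atp5k, which holds both, was at 0.48, and Ndufaf4, with an NRF1-like match, was at -0.03.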

How the data were processed

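The authors deposited log2 values per gene for the 7 libraries, that is TMM-normalized CPM with a small constant added before the logarithm. The submitters' processing notes name bcl2fastq, FastQC, Trim Galore, STAR, edgeR and the build mm10. To recover CPM, the values were taken out of the logarithm and the constant, read from the lowest value (-4.66), was subtracted. The CPM came out as whole reads, within 0.02, for 100% of values.

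A gene entered the test if 2 libraries or more had 1 CPM or more. The test was limma version 3.58.1 (R version 4.3.3; lmFit and eBayes with a trend) on log2(CPM + 0.5), a scale that understates changes of low genes. All 3 groups were fitted together, two-sided, with Benjamini-Hochberg adjustment over 13976 genes and a threshold of 0.05. The fit was tested on simulated counts. Complexes and lists are described by medians and counts, with no set test. The genes, lists and rule for naming (core subunits, isoforms of restricted tissue, the extremes of each complex and comparison, and regulators) were chosen with earlier results of these data known. Genes named beyond it, and the order of the libraries, were chosen after their values were seen. Each mouse gave 1 library, so p-values measure the spread between mice of these groups. Lengths are of the main transcript in GENCODE M21, and promoters are from RefSeq. Figures were drawn with matplotlib 3.10.9. Columns left out numbered 0. The values of 1 gene are not reported here, though it is counted in the sums, counts and medians. The other experiments of the study are not analysed here.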

Additional observations from a re-analysis of the deposited data

How the results depend on the processing

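The median log2 fold change of the oxidative phosphorylation genes was positive in DM-22 against C mice under all 18 alternatives (0.28 to 0.55) and negative in DM+SGLT2i against DM-22 mice under all 18 (-0.61 to -0.12). In DM+SGLT2i against C mice it changed sign with the libraries kept (-0.27 to 0.25, negative under 11 and positive under 7), and these 2 ends are the fits without DM+SGLT2i replicate 2 and without replicate 1. Leaving out 1 library at a time gave medians for complex II of -0.18 to 0.18 in DM+SGLT2i against C and of -0.48 to -0.11 against DM-22, and 0 called genes throughout. Scaling to the library total moved the median of all genes to 0.11 in DM+SGLT2i against DM-22 mice, where that of the 87 genes was -0.26. It gave 0.28 for the 87 genes in DM-22 against C mice. With only the 2 groups compared and without C replicate 2, an alternative added after seeing the data, 1 gene (Cox6b2) was called higher in DM+SGLT2i than in C mice, against 6.79% of all genes. Replicate numbers 1 and 2 occur in both diabetic groups, but same-numbered libraries did not deviate together (correlation across 13976 genes -0.04), so the numbers were not taken to pair the mice. With the number as a replicate block the median in DM+SGLT2i against DM-22 mice was -0.37, with 0 of the 87 genes called and 0 at an unadjusted p under 0.05. Of all 13976 genes, 0 were called in that fit, and 537 were higher and 159 lower at the unadjusted threshold. Moving Ndufa4 to complex IV or leaving out assembly factors kept every direction in DM-22 against C and DM+SGLT2i against DM-22 mice. The groups held 2 or 3 mice each, and the size of difference that could be detected was not computed.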
